A study of Mus musculus with 6 samples.

Results

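The endothelial genes described here are 10 genes of the cells that line blood vessels, found by symbol among the 22651 genes of each table. All 10 were present in the 6 samples and all 10 passed the filter on low counts that left 13969 genes for testing. Pecam1, Cdh5, Cldn5, Kdr, Flt1 and Tek were taken as 6 general endothelial genes, and Aplnr, its ligand Apln, Mmrn1 and Vwf were set against them. The set was chosen by the levels (TPM and counts) of these same 6 samples, in which Aplnr and Mmrn1 were already known to be lower in TSC1, so the differences between the groups below are descriptions and were not tested as findings on these genes.

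mRNA-sequencing was performed on telencephalon tissue of mice at postnatal day 0, with 1 table per mouse and 3 mice per group. The WT pups had the genotype TSC1 flox/flox;Emx1 +/+ and were littermates without Cre. The TSC1 pups had the genotype TSC1 flox/flox;Emx1-cre/+. Both groups thus carried the floxed Tsc1 allele on both chromosomes, and in the TSC1 pups Cre from the Emx1 locus removed part of the gene in the embryonic dorsal cortex, a lineage of neurons and glia. Whether endothelial cells lost Tsc1 was not measured.

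Endothelial cells of the developing brain grow in from the vessels on its surface under signals such as vascular endothelial growth factor, and form the blood-brain barrier through tight junctions. Aplnr is a G protein-coupled receptor of sprouting and venous endothelium, and the peptide apelin, made from Apln, is one of its ligands. Mmrn1 encodes multimerin 1, a large secreted protein stored in platelets and in endothelial cells, where Vwf, von Willebrand factor, is also stored.

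Sequences are shown for the ligand and for the start regions of 1 gene with a large difference between the groups and 2 genes near 0. The coding sequence of Apln (GENCODE transcript Apln-201, GRCm38, minus strand, chrX:48025146-48034853 for the whole gene) had 234 bases in 2 coding blocks, or 77 codons before the stop. It is given 5′ to 3′ with the last 13 codons before the stop, which encode the apelin-13 peptide, in capitals (39 bases). Aplnr, on the plus strand at chr2:85136225-85139923, had 1 coding block of 1134 bases or 377 codons.
Apln coding sequence: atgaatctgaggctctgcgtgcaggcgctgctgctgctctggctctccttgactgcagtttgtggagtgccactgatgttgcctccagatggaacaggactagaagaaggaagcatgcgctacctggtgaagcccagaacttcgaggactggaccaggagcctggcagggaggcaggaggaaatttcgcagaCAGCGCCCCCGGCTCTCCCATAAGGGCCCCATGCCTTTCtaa

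Promoters of 300 bases (250 before and 50 after the RefSeq start, GRCm38.p6) were read for 6 of the 10 genes, and those of Pecam1, Cdh5, Aplnr and Vwf were not analysed here. The motif GGAA, the core that ETS factors of endothelial cells recognise, was searched on both strands, so GGAA and TTCC are in capitals. Mmrn1 is shown as the gene with the large difference, and Flt1 and Apln as genes whose groups overlapped.
Mmrn1, chr6:60944067-60944366, plus strand: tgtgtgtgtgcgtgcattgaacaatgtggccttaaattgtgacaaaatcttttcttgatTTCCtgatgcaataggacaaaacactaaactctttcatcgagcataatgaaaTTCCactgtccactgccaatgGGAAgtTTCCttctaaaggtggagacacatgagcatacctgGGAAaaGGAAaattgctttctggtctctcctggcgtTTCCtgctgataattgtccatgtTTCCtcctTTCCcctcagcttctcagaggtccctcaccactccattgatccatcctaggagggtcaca
Flt1, chr5:147725962-147726261, minus strand: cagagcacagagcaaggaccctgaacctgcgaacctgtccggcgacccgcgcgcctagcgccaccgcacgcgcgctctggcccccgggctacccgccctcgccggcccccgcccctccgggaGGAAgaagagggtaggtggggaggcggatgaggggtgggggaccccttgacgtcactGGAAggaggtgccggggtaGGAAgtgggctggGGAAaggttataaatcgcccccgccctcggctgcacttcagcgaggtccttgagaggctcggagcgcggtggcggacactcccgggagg
Apln, chrX:48034804-48035103, minus strand: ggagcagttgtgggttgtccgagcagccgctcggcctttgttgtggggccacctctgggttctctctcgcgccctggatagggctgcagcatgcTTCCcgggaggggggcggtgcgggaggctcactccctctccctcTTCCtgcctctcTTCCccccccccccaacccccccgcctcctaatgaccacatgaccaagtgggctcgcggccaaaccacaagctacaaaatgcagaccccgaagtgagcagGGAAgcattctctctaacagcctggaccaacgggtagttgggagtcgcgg

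The Mmrn1 promoter held 9 matches, those of Flt1 and Apln held 4 each, Kdr 5, Tek 2 and Cldn5 0, beside a median of 3 over 32851 promoters, of which 96% held at least 1. The GC content was 44.3% in Mmrn1, 70.7% in Flt1 and 64% in Apln. The Mmrn1 window lies within the longer GENCODE span of the gene, chr6:60924976-60989378. A match is a run of letters, and binding was not measured.

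Total expected counts, the reads that the quantification assigned to genes, ranged from 14119365 to 17772865 per sample, so that 3 counts in a gene stood for 0.169 to 0.212 CPM, the counts scaled to library size. The members had from 34 to 1162 counts per sample, the lowest in Mmrn1 of TSC1 replicate 2 and the highest in Cldn5 of WT replicate 2. Levels are given as TPM, a share of all transcripts that is scaled to gene length. Tsc1 itself, counted over the whole gene although only part of it is deleted, was at 50.2, 32.0 and 28.4 TPM in WT and at 27.1, 21.7 and 22.4 TPM in TSC1 replicates 1, 2 and 3, with groups that did not overlap but no call in edgeR (adjusted p = 0.09998). Replicate 3 of each group was male by Ddx3y (64.3 and 62.0 TPM, and 0 in the other 4 pups). On the first principal component, with 47.7% of the variance, TSC1 replicate 3 (-3.95) lay nearer to the WT samples (-26.3 to -7.43) than to TSC1 replicates 1 and 2 (26.5 and 30.3), so the results were also computed without it.

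Markers of other cells that also moved were measured as summed TPM. The 14 striatal and subpallial neuron genes summed to 671 to 811 in WT and to 297 to 493 in TSC1, with all 14 at a negative log2 fold change and 3 called lower in edgeR, where 0.659% of the 13969 genes tested were. Those 3 were Dlx1 (log2 fold change -0.68 ± 0.0957, edgeR adjusted p = 0.0183), a homeobox factor of inhibitory neuron precursors, and Gad1 and Gad2, which make the transmitter GABA (-0.83 and -1.03, edgeR adjusted p = 0.0479 and 0.0318). At an unadjusted p under 0.05, 13 of the 14 were lower and 0 higher, where 8.93% of all genes were lower. DESeq2 called 8 of them lower, where 2.15% of all genes were. In 13 of the 14 every TSC1 sample was below every WT sample, beside 10.3% of all genes. Dlx1 and Ppp1r1b, the most abundant of the list, were among those 13. With each replicate left out in turn, Dlx1 was called in 3 of 6 fits, Gad2 in 2 and Gad1 in 1. The part of these cells in the endothelial values was not tested.

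The apelin receptor and multimerin 1 were lower in the TSC1 pups, while their partners in signalling and storage overlapped between the groups. Aplnr was at 33.8, 30.3 and 20.6 TPM in WT replicates 1, 2 and 3 and at 10.6, 12.7 and 10.6 TPM in TSC1 replicates 1, 2 and 3. Every TSC1 sample was below every WT sample, and the TSC1 samples lay close together while WT replicate 3 was the lowest of its group. The means were 28.2 ± 6.83 and 11.3 ± 1.23 TPM (SD, n = 3 each), and the log2 fold change in edgeR was -1.34 ± 0.168 (SE), a 2.54-fold lower level, with a 95% interval from -1.72 to -0.97. It stood at rank 71 from the lowest among 13969 fold changes. Expected counts of Aplnr were 689, 702 and 385 in WT and 201, 229 and 217 in TSC1.

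Mmrn1 was at 5.19, 5.32 and 4.14 TPM in WT and at 2.43, 1.45 and 1.71 TPM in TSC1. The groups did not overlap, and WT replicate 3 was again the lowest of its group, as it was for each of the other members. The means were 4.88 ± 0.647 and 1.86 ± 0.508 TPM (SD, n = 3 each), with a log2 fold change of -1.42 ± 0.202 (95% interval -1.87 to -0.96), a 2.67-fold lower level at rank 57 from the lowest. It rested on 138, 161 and 101 counts in WT and 60, 34 and 46 in TSC1, fewer than for the other 9 genes on average.

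The ligand Apln was at 11.5, 11.2 and 7.58 TPM in WT and at 12.9, 8.57 and 9.88 TPM in TSC1. The groups overlapped throughout, with a log2 fold change of 0.02 ± 0.187 and an interval from -0.40 to 0.44. Vwf, the carrier of clotting factor VIII, was at 10.49, 9.15 and 6.01 TPM in WT and at 10.9, 6.44 and 5.95 TPM in TSC1. It also overlapped, and its interval was wide, from -0.70 to 0.37 around -0.17 ± 0.238.

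**Figure D1:**
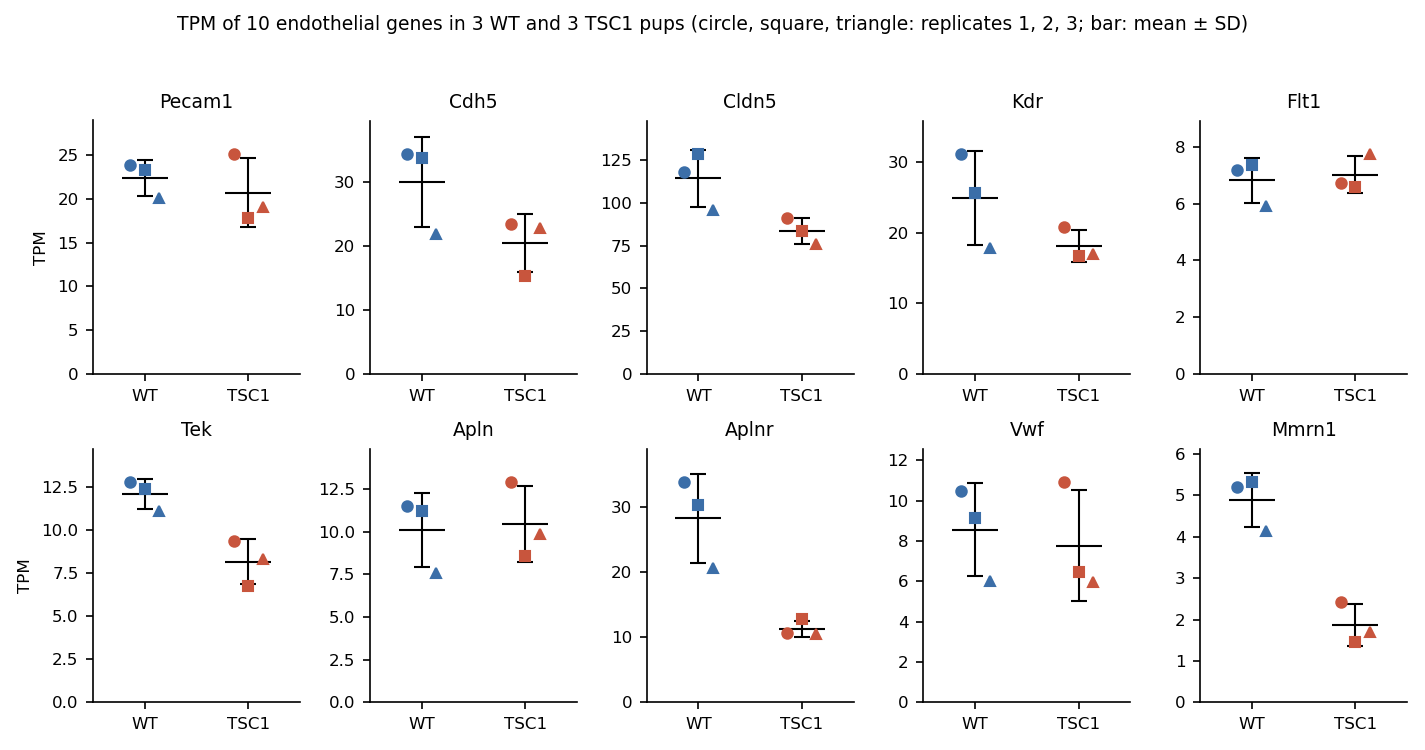
TPM of each of the 10 genes (vertical axes, each from 0) in the 3 WT and 3 TSC1 pups, with circle, square and triangle for replicates 1, 2 and 3 and bars for the mean ± SD. The TSC1 samples lie below all WT samples for Aplnr, Mmrn1, Tek and Cldn5, and the groups overlap for the other 6.

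Among the general endothelial genes, the junction proteins were lower or overlapped. Cldn5, the main claudin of brain endothelial tight junctions, was at 118, 129 and 95.9 TPM in WT and at 91.1, 83.4 and 76.1 TPM in TSC1, so that every TSC1 sample was below every WT sample. Its log2 fold change was -0.49 ± 0.111, and it was not called in edgeR. Cdh5, the cadherin of endothelial adherens junctions, was at 34.4, 33.7 and 21.8 TPM in WT and at 23.4, 15.2 and 22.8 TPM in TSC1. WT replicate 3 lay among the TSC1 samples, and the log2 fold change was -0.57 ± 0.192. Pecam1, an adhesion molecule of endothelial contacts and platelets, was at 23.8, 23.3 and 20.1 TPM in WT and at 25.2, 17.8 and 19.1 TPM in TSC1. The highest value of the 6 was a TSC1 sample, and the interval of the log2 fold change ran from -0.43 to 0.14.

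The growth factor receptors are given next. Tek, the receptor of the angiopoietins, was at 12.8, 12.4 and 11.1 TPM in WT and at 9.36, 6.78 and 8.35 TPM in TSC1. The groups did not overlap, and its log2 fold change of -0.59 ± 0.128 was the lowest of the 6 general genes, though it was not called in edgeR. Kdr, the main signalling receptor of vascular endothelial growth factor, was at 31.2, 25.7 and 17.9 TPM in WT and at 20.8, 16.8 and 16.9 TPM in TSC1. WT replicate 3 fell among the TSC1 samples, and the log2 fold change was -0.48 ± 0.166. Flt1, which binds the same factor and can act as a decoy for it, was at 7.19, 7.37 and 5.91 TPM in WT and at 6.73, 6.57 and 7.76 TPM in TSC1. It overlapped, with the highest value in TSC1 replicate 3, and its log2 fold change was 0.02 ± 0.125. The reads of its soluble form could not be told apart here, since the tables hold 1 Flt1 transcript.

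Of the 10 genes, 2 (Aplnr and Mmrn1) were called lower at an adjusted p of 0.05 in edgeR and 0 higher, where 0.659% of the 13969 genes tested were called lower, 0.859% higher and 1.52% in either direction. With DESeq2, 5 were called lower (also Cdh5, Cldn5 and Tek), where 2.15% of all genes were called lower and 4.55% in either direction. With limma on log2(TPM + 1), Aplnr and Mmrn1 were called, where 1.93% of the genes were. In 4 of 10 every TSC1 sample was below every WT sample, beside 10.3% of all genes (12.3% had every TSC1 sample above), and 8 of 10 had a negative log2 fold change. Since these contrasts chose the genes, the counts are given without a reading. Single mice decided some of these calls. Aplnr was not called once WT replicate 2 (log2 fold change -1.28) or TSC1 replicate 1 (-1.29) was left out, and Mmrn1 was not called without WT replicate 2 (-1.34) or TSC1 replicate 2 (-1.28). Without TSC1 replicate 3, which stood apart, both were called at -1.31 and -1.37. In bulk tissue, fewer endothelial cells and less RNA of a gene per cell cannot be told apart.

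**Figure D2:**
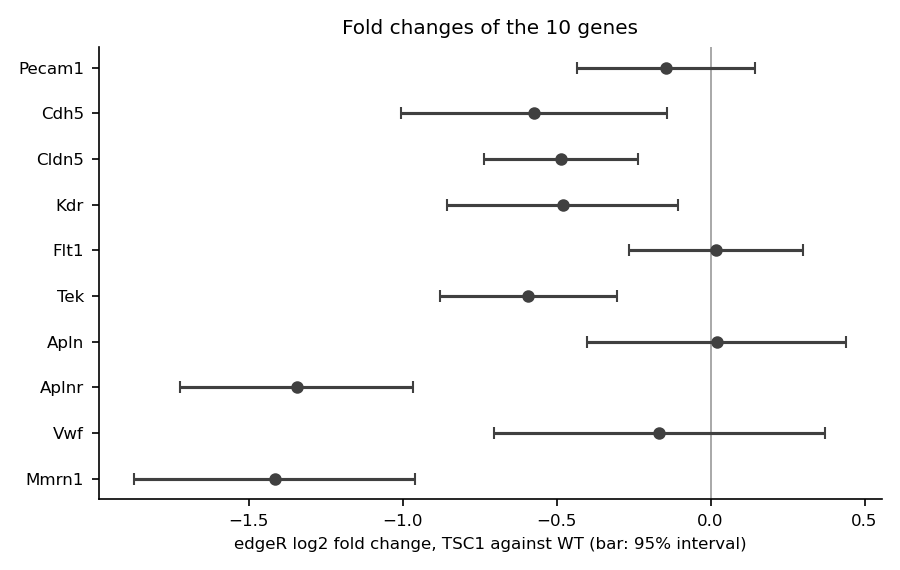
Log2 fold change of TSC1 against WT from edgeR for each of the 10 genes (horizontal axis), with points for the estimate and bars for the 95% interval. Aplnr (-1.34) and Mmrn1 (-1.42) lie to the left of the other 8, which range from -0.59 to 0.02.

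Ordered by mean TPM in WT, Cldn5 was highest at 114 ± 16.8 and Mmrn1 lowest at 4.88 ± 0.647, and both stood clear of their neighbours. Cdh5, Aplnr, Kdr and Pecam1 followed Cldn5 at means from 30.0 to 22.4 TPM, in an order whose neighbours overlapped between samples. Tek, Apln, Vwf and Flt1 came after them, at means from 12.1 to 6.82 TPM, and their neighbours overlapped too. In TSC1 the order kept Cldn5 first (83.5 ± 7.52) and Mmrn1 last (1.86 ± 0.508). Aplnr moved from rank 3 in WT to rank 5 in TSC1, where it came after Pecam1, Cdh5 and Kdr (20.7, 20.5 and 18.2 TPM) and next to Apln, whose samples overlapped its own.

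Ratios within a sample remove only what scales both terms alike. The 6 general genes did not move alike, with log2 fold changes from -0.59 in Tek to 0.02 in Flt1. A ratio to them can also rise because the reference falls. The geometric mean of the 6 general genes was 25.6, 24.9 and 19.1 TPM in WT and 20.3, 16.01 and 18.2 TPM in TSC1, with means of 23.2 ± 3.52 and 18.2 ± 2.15 and overlapping groups. Against that reference Aplnr stood at 1.32, 1.22 and 1.08 in WT and at 0.523, 0.794 and 0.580 in TSC1. Mmrn1 stood at 0.203, 0.214 and 0.216 in WT and at 0.120, 0.0906 and 0.0940 in TSC1. Neither ratio overlapped between the groups, and the mean ratio in TSC1 was 0.525 of that in WT for Aplnr and 0.480 for Mmrn1. On the scale of log2(TPM + 1), the difference from the mean of the 6 genes changed by -0.89 for Aplnr and by -0.72 for Mmrn1. Leaving out each sample in turn kept the change between -1.06 and -0.78 for Aplnr and between -0.78 and -0.68 for Mmrn1.

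Apln and Vwf were set against the same reference. In that ratio, Apln stood at 0.450, 0.450 and 0.396 in WT and at 0.635, 0.535 and 0.543 in TSC1, higher in every TSC1 sample. The same held for Flt1, one of the 6, at 0.281, 0.296 and 0.309 in WT and at 0.331, 0.410 and 0.426 in TSC1, and the mean ratio in TSC1 was 1.32 of that in WT for both genes. Tek, also one of the 6, was lower in every TSC1 sample, at 0.851 of the WT ratio. Vwf stood at 0.411, 0.368 and 0.314 in WT and at 0.538, 0.402 and 0.327 in TSC1, and the groups overlapped. The receptor stood at 2.93, 2.70 and 2.72 times its ligand Apln in WT and at 0.824, 1.48 and 1.07 times in TSC1. In WT the receptor was thus above the ligand in all 3 pups, and in TSC1 the values lay on both sides of 1. Mmrn1 stood at 0.495, 0.581 and 0.689 of Vwf in WT and at 0.223, 0.225 and 0.287 in TSC1, without overlap. The ratio of Aplnr to Mmrn1 was 5.72 ± 0.768 in WT and 6.44 ± 2.21 in TSC1 (SD, n = 3 each), and the groups overlapped. It ran from 4.97 to 6.51 in WT and from 4.37 to 8.77 in TSC1. Both genes were chosen with their fall known, so this ratio is a description only. The ratio of Kdr to Flt1 overlapped as well, at 4.34, 3.49 and 3.03 in WT and 3.09, 2.55 and 2.18 in TSC1.

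**Figure D3:**
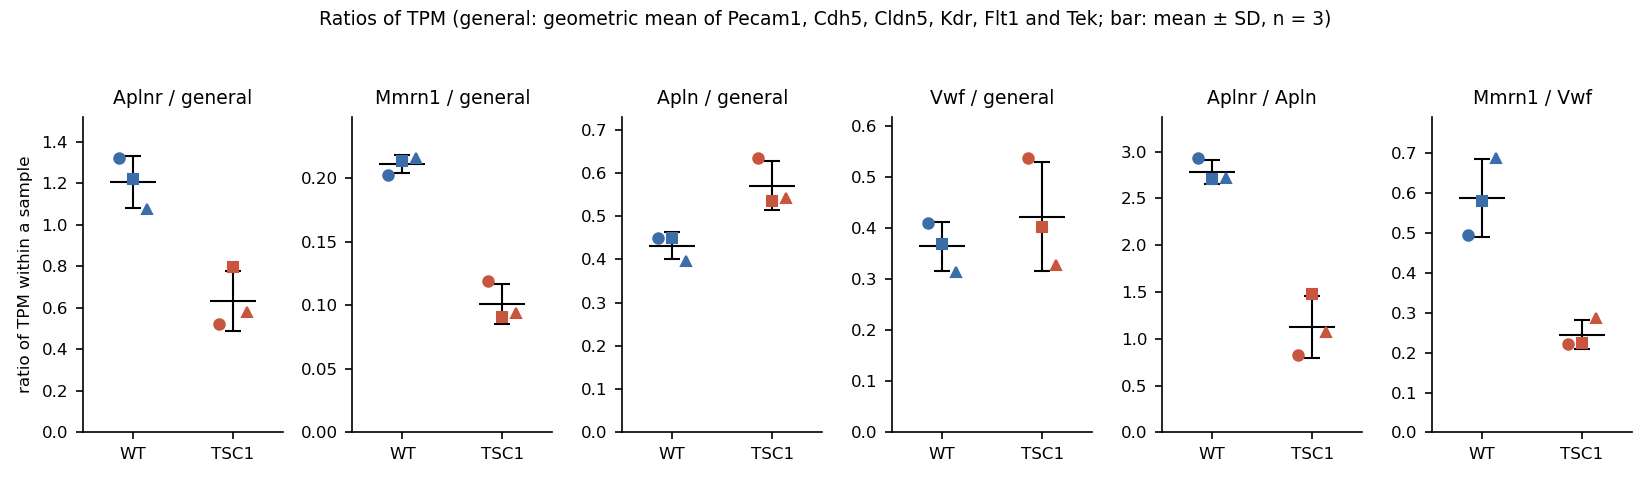
Ratios of TPM within each sample (vertical axes, each from 0) for WT and TSC1 pups, with circle, square and triangle for replicates 1, 2 and 3 and bars for the mean ± SD (n = 3). The TSC1 samples are below all WT samples for Aplnr and Mmrn1 against the general genes, against Apln and against Vwf, above them for Apln against the general genes, and overlap them for Vwf.

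A list of further endothelial genes lay closer to 0 than Aplnr and Mmrn1. Of 24 further endothelial genes tested, 0 were called in edgeR in either direction (6 lower and 0 higher at an unadjusted p under 0.05, where 8.93% of all genes were lower and 18% passed in either direction, and 2 lower, Tie1 and Egfl7, in DESeq2). Their median log2 fold change was -0.14, beside 0.00 (-0.00267) over all genes tested, 17 were negative and 7 positive, and they ran from -0.70 in Erg, an ETS factor, to 0.20 in S1pr1, a sphingosine phosphate receptor. Their summed TPM was 293 to 362 in WT and 283 to 328 in TSC1, so the groups overlapped. The 6 general genes had a median of -0.48. Cd34 and S1pr1, the most abundant of the 24 over all 6 samples, had log2 fold changes of -0.15 and 0.20, and Egfl7, the most abundant in WT alone, was at -0.66 without overlap.

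The vessel type lists were mixed. They were read in bulk tissue, where RNA of the same genes from other cells cannot be told apart. In WT, mean levels were 162 TPM for Efnb2 and 118 TPM for Reln, beside 2.86 TPM for Flt4, also of the lymphatic list. The part of other cells in these lists was not tested. Of 15 blood-brain barrier genes, 0 were called in edgeR (1 higher and 5 lower at an unadjusted p under 0.05, and 1 higher and 2 lower in DESeq2), with a median of -0.09 and with -0.31 for Bsg and -0.36 for Itm2a, its most abundant members. Beside these and the list counts below, 8.93% of all genes were lower at that p and 18% passed in either direction. DESeq2 called 2.15% of all genes lower and 4.55% in either direction. The 8 arterial genes tested (Efnb2 at -0.03 and Nrp1 at 0.40 most abundant) had a median of -0.05, the 8 tip cell genes (Cxcr4 at -0.25 and Lamb1 at 0.10) a median of -0.10, and the 5 lymphatic genes (Pdpn at -0.22 and Reln at -0.06) a median of -0.09, with no call in edgeR in these lists. At an unadjusted p under 0.05, 2 tip cell genes were lower and 0 genes of the other two lists passed, and DESeq2 called 1 tip cell gene lower. The 7 venous and fenestrated genes tested had a median of -0.07. In edgeR 1 was called lower and 1 higher, where 0.659% of all genes were called lower and 0.859% higher. At an unadjusted p under 0.05, 2 were lower and 1 higher, and DESeq2 called 1 lower and 1 higher. Slc38a5, a glutamine transporter of brain endothelium, was the gene called lower in edgeR. It was at 31.6, 27.8 and 24.2 TPM in WT and at 16.9, 18.0 and 15.2 TPM in TSC1, without overlap (log2 fold change -0.77 ± 0.125, edgeR adjusted p = 0.0276). It was called in 2 of 6 fits with a replicate left out, those without WT replicate 1 or TSC1 replicate 3. Ackr1, listed as Darc, was called higher (0.47 ± 0.0846, edgeR adjusted p = 0.0391), but its exons overlap those of the neighbouring gene Cadm3 on the same strand, so its value is uncertain, and it was called in 2 of 6 such fits.

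Ligands and coreceptors of these pathways were measured in the same tissue. Of 9 tested, Vegfa, the growth factor that Kdr and Flt1 bind, was called higher in edgeR and 0 were called lower, while DESeq2 also called Tie1, a receptor that pairs with Tek, lower (2 higher and 1 lower at an unadjusted p under 0.05). It was at 31.6, 36.6 and 31.3 TPM in WT and at 54.0, 47.1 and 44.0 TPM in TSC1, with no overlap (log2 fold change 0.51 ± 0.0993, edgeR adjusted p = 0.0460). It was called in 1 of 6 fits with a replicate left out, that without TSC1 replicate 3, and its log2 fold change in those fits ran from 0.45 to 0.59. Angpt1 and Angpt2, ligands of Tek, were at 0.08 and -0.03 on the same log2 scale and were not called. Vegfb and Apela were not analysed here. Nrp1 and Nrp2, the most abundant coreceptors, were at 0.40 and -0.07.

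The relatives and storage partners of Mmrn1 were next. All 4 further EMILIN and multimerin genes had a negative log2 fold change, with a median of -0.49 and no call in edgeR or DESeq2 (2 lower at an unadjusted p under 0.05). Mmrn2, the other multimerin and an endothelial matrix protein, was at 5.06, 4.45 and 4.01 TPM in WT and at 2.63, 2.92 and 3.17 TPM in TSC1. The groups did not overlap, at -0.66 ± 0.162, and the gene was not called (edgeR adjusted p = 0.0809). The ratio of Mmrn1 to Mmrn2 was 1.026, 1.196 and 1.032 in WT and 0.924, 0.497 and 0.539 in TSC1. Emilin1, an elastic fibre protein, was at -0.64 ± 0.228. Of 9 Weibel-Palade body and haemostasis genes tested, the store of Vwf in endothelial cells, 4 were negative and 5 positive with a median of 0.06, and Plat and Cd63, the most abundant, were at 0.06 and 0.15. The list went both ways, with the anticoagulant genes Procr, Thbd and Tfpi at -0.69, -0.66 and -0.62 and Edn1, an endothelial vasoconstrictor peptide, at 1.85. None was called in edgeR (1 higher and 2 lower at an unadjusted p under 0.05), and DESeq2 called Edn1 higher and Tfpi lower.

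Blood and vessel wall cells were checked because Mmrn1 and Pecam1 are also platelet genes. The 10 platelet and megakaryocyte genes summed to 62.4 to 87.9 TPM in WT and to 61.7 to 72.4 TPM in TSC1, with 0 of 6 tested called in edgeR and a median of -0.33. Over the 6 samples Gp9 did not exceed 0.45 TPM and Itga2b ranged from 0.46 to 0.94 TPM, while Gp1ba ranged from 2.12 to 5.66, Pf4 from 11.8 to 43.8 and Gp1bb from 31.6 to 43.5 TPM. Pf4 and Gp1bb, which made up most of the sum, were at -0.62 and 0.18 on the log2 scale. Gp1bb and Itgb3 were higher in every TSC1 sample than in every WT sample. Reads of these genes from other cells cannot be told apart in bulk tissue, so the sum is not a measure of platelets alone. The 7 red cell genes in the tables summed to 1695 to 5568 TPM in WT and to 1293 to 1783 TPM in TSC1. The highest sum was in WT replicate 3, the male WT pup, which had the lowest level of its group for every member. Hba-a1 and Hbb-b1, near-identical to other globin copies and thus uncertain, were at -1.03 and -0.88. The 12 pericyte and smooth muscle genes tested had a median of -0.31 (Rgs5 at -0.32 and Vtn at -0.64), with sums of 209 to 271 TPM in WT and 177 to 215 TPM in TSC1. The 8 fibroblast genes were all negative with a median of -0.43 (Col1a2 at -0.58 and Dcn at -0.45, the most abundant over all 6 samples, and Col3a1 at -0.86 and Ogn at -1.21), with sums of 247 to 405 TPM in WT and 136 to 332 TPM in TSC1. The 7 microglia and macrophage genes had a median of -0.53, at -0.62 for Mrc1 and -0.35 for Csf1r, with sums of 67.9 to 89.3 TPM in WT and 48.1 to 75.8 TPM in TSC1. None of these genes was called in edgeR. At an unadjusted p under 0.05, 1 platelet gene was higher, 4 red cell, 2 fibroblast and 4 microglia and macrophage genes were lower, and 1 pericyte gene was higher and 4 were lower, and DESeq2 called 1 pericyte gene lower. Over all genes tested, 8.93% were lower at that p and 18% passed in either direction, and DESeq2 called 2.15% lower. The part of these cells in the values of Aplnr and Mmrn1 was not tested.

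**Figure D4:**
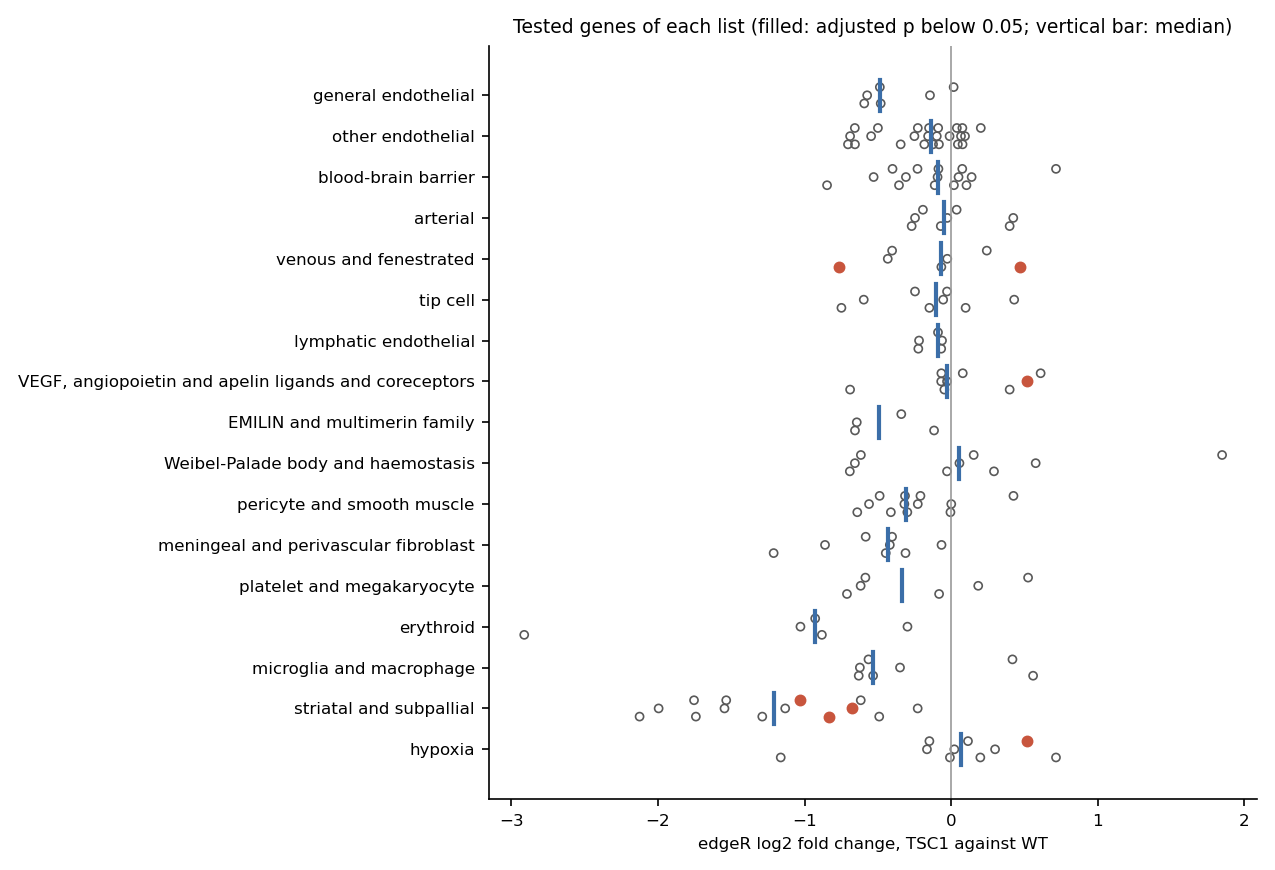
Log2 fold change of TSC1 against WT from edgeR (horizontal axis) for each tested gene of the 17 lists, with vertical bars for the median of a list and filled points for genes at an adjusted p below 0.05. The general endothelial genes centre at -0.48 and the 24 further endothelial genes at -0.14, and the filled points are Slc38a5, Ackr1, Vegfa (in 2 lists), Gad2, Gad1 and Dlx1.

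The genes whose levels across the 6 samples were most like those of Aplnr and Mmrn1 were sought among 13843 genes, by the root mean square difference of log2(TPM + 1) after centring. For Aplnr these were C130074G19Rik (0.204), Lst1 (0.223), Spon2 (0.240), Dab2 (0.240) and Mmrn1 (0.258). For Mmrn1 they were Msx1as (0.154), Ly6g6d (0.169), C130074G19Rik (0.170), Adh1 (0.172) and Col18a1 (0.174). Mmrn1 was thus among the 5 nearest to Aplnr, and 1 gene was in both lists. Msx1as is antisense to Msx1, and reads of the pair cannot be told apart without strand. The 6 points of each gene include the difference between the groups, which chose Aplnr and Mmrn1.

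The mean transcript length, which was not used to choose the genes, could be compared for Pecam1 and Mmrn1, the members with more than 1 transcript in the tables. It differed by 2.25 bases for Pecam1 and by 0.487 bases for Mmrn1 (two-sided exact permutation p = 0.7 for both, adjusted over both 0.7), where 0.1 is the smallest p that 3 against 3 allow. The effective length, which also takes in the fragment lengths of a library, differed by -5.98 bases for Pecam1 (two-sided exact permutation p = 0.5, adjusted 0.5) and by -7.74 bases for Mmrn1 (two-sided exact permutation p = 0.1, adjusted 0.2), of a mean of 4587 bases in WT. For Mmrn1 every TSC1 sample was below every WT sample on that measure and the sign of both differences was turned. Within each sample, however, the effective length fell short of the length by the same number of bases in both genes. That gap was larger in every TSC1 library than in every WT library, so the shift belongs to the libraries and is not particular to Mmrn1. No exon of the 10 members overlapped an exon of another gene in the GENCODE annotation.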

How the data were processed

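mRNA-sequencing tables of 3 WT and 3 TSC1 telencephalons, 1 per mouse, were grouped by the genotype labels. The authors aligned trimmed reads to mm10 and quantified RefSeq transcripts with RSEM 1.2.12 (named in the submitters' processing notes), and the strand setting and RefSeq release are not given in the sources used here. The deposited expected count is RSEM's unnormalized estimate of reads per gene. The deposited TPM is a share of transcripts after division by effective length, from the authors' RSEM run, and the deposited FPKM was not used for any result.

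After rounding, the quasi-likelihood test of edgeR 4.0.16 (R 4.3.3) was run on the expected counts with TMM factors and filterByExpr. A gene was called when its p, adjusted by Benjamini-Hochberg over all genes tested, was below 0.05. Each edgeR p-value sets the group difference of a gene against the spread between these 3 mice per group. The estimate of that spread also draws on the other genes tested. Counting error alone sets a floor of 3 counts. Single values were compared by exact permutation. Promoters were taken from a RefSeq table of GRCm38.p6, and positions, counted from 1, from GENCODE on GRCm38, the assembly of mm10. The edgeR fit, DESeq2, limma on log2(TPM + 1) and the study's integrative method were first tested on simulated data in which 200 genes changed. The other alternatives named below were not tested in that way.

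The members and the gene lists were chosen with earlier results of these data known. An item that had been in a list is not reported here and is in none of the list values. Named genes were all 10 members, every gene of a list that was called, the 2 most abundant genes of each list, the 5 genes most like Aplnr and Mmrn1 among those reaching 1 TPM in 3 or more samples, and Tsc1. Erg, Tie1, Egfl7, Mmrn2, Angpt1, Angpt2, Cadm3, Msx1, Procr, Thbd, Tfpi, Edn1, Col3a1, Ogn, Slc2a1, Ankrd37 and the platelet markers other than Pf4 and Gp1bb were named after their values were seen. Flt4 and Ddx3y were also named, though neither met the rule above. Alternatives were RLE and upper quartile normalization, DESeq2 1.42.0, limma 3.58.1 on log2(TPM + 1) and log2(TPM + 0.1), no filter, at least 10 counts in every sample, effective lengths as offsets, the study's integrative method on log2(TPM + 1) with a null from all 20 assignments, each replicate left out, and a replicate block. Sex as a covariate and female pups only were added after seeing the data.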

Additional observations from a re-analysis of the deposited data

How the results depend on the processing

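The number of genes called was 212 of 13969 and moved to 636 with DESeq2, 346 with no filter, 1008 with the integrative method, whose p is not adjusted, 691 with sex as a covariate and 434 in female pups only, and from 29 to 799 with 1 replicate left out (29 without WT replicate 2, 35 without WT replicate 3, 37 without TSC1 replicate 1 or 2, 447 without WT replicate 1 and 799 without TSC1 replicate 3). Sex as a covariate and the female subset were chosen after seeing the data. Among the 24 further endothelial genes, 0 were called in edgeR, against 2 with DESeq2, 1 with no filter, 2 with sex as a covariate, 1 in female pups only and 0 to 2 with 1 replicate left out. Aplnr and Mmrn1 kept a negative log2 fold change under every alternative and were called in 12 of the 12 that left out no single replicate. Over the same 12, Cldn5 was called in 6, Tek in 5, Cdh5 in 3 and Kdr in 2, and Pecam1, Flt1, Apln and Vwf in 0. Cldn5 and Tek were called with no filter and with sex as a covariate, among others, and Kdr with the integrative method and in female pups only. Aplnr and Mmrn1 were called in 4 of 6 leave-one-out fits each, with ranges of -1.51 to -1.22 and -1.63 to -1.28. The change of Mmrn1 against the 6 general genes (-0.72) was -0.83 on the CPM scale, -0.89 against the 24 further endothelial genes and -1.02 with 0.1 added to the TPM. Tek was called in 1 leave-one-out fit, that without TSC1 replicate 3. The direction of Flt1 and Apln, which were never called, depended on the setting, negative in 5 of 18 alternatives.

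Replicate numbers were not shown to pair the mice. Deviations of same-numbered samples correlated at 0.27, -0.13 and 0.32, and 4 of 6 samples correlated best with their own number. With a replicate block 551 genes were called, with Aplnr at -1.32 and Mmrn1 at -1.42, and Cldn5 and Tek were called too.

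Depth limits Mmrn1 most, at 34 counts in 1 sample. The causes of these shifts were not tested.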

Other observations

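Vegfa is also one of the genes known to respond to low oxygen. Of 10 such genes tested, 1 (Vegfa) was called higher in edgeR and 0 lower, where 0.859% of all genes tested were called higher. DESeq2 called 2 of the 10 higher, where it called 335 of all 13969 genes higher. At an unadjusted p under 0.05, 3 were higher and 1 lower, where 18% of all genes passed in either direction and 8.93% were lower. In 5 every TSC1 sample was above every WT sample, beside 12.3% of all genes, and Ankrd37 was at -1.16 with every TSC1 sample below. The median log2 fold change was 0.07, with 4 negative and 6 positive. Ldha and Ndrg1, its most abundant members, were at -0.01 and 0.30. Slc2a1, the glucose transporter of the blood-brain barrier that is in this list too, was at 35.5, 34.9 and 29.7 TPM in WT and at 70.1, 43.5 and 54.1 TPM in TSC1. The groups did not overlap, and it was not called (log2 fold change 0.72 ± 0.151, edgeR adjusted p = 0.0554). Edn1 was at 1.05, 1.59 and 1.88 TPM in WT and at 9.32, 2.30 and 5.07 TPM in TSC1, higher in every TSC1 sample but uneven and not called (1.85 ± 0.469, edgeR adjusted p = 0.0882).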
